A study of Mus musculus with 10 samples.

Results

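The genes described here are Egr1, Egr2 and Egr3, which encode zinc finger transcription factors of the early growth response family, and Nab1 and Nab2, which encode their corepressors. They were taken by name from a table of 17658 genes, all 5 were found, and all 5 passed the filter (mean over libraries no lower than 1 FPKM), which left 10225 genes for testing. Values are FPKM, fragments scaled to transcript length and to the library's mapped fragments, so levels of different genes can be set side by side per length. Polyadenylated RNA was sequenced from B cells of spleen and lymph node of C57BL/6 mice aged 10 weeks, enriched magnetically by removing other cells. The labels give 4 groups. One library each came from Nr4a1+/+ and Nr4a1-/- cells with no agent, and 4 libraries each, lettered A to D, came from cells of both genotypes given anti-IgM at 10 µg/mL for 2 hours. The comparison was made in search of inducible genes that are differentially expressed. Whether the unstimulated cells were kept in culture and whether each letter is a separate mouse are not given in the sources used here. Nor is the form of the Nr4a1-/- allele, or whether cells other than B cells carried it. If the letters are not separate mice, p-values measure only the spread between these libraries, which may be technical.

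Egr genes are immediate early genes: signals from the B cell antigen receptor switch them on within minutes through transcription factors that are already present. Their proteins bind GC-rich sites through a conserved zinc finger domain. Nab1 and Nab2 bind a short repressive domain of Egr1, Egr2 and Egr3 and dampen their activity, in part by recruiting the Chd4 subunit of the NuRD chromatin remodelling complex. Nab2 is itself known as an Egr-inducible gene, so that Egr and Nab proteins form a feedback loop. Nr4a1, the gene marked -/- in the knockout labels, encodes the orphan nuclear receptor Nur77 and is also induced by the antigen receptor. Anti-IgM crosslinks that receptor on mature B cells.

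On build GRCm38 (GENCODE M21), Egr2 lies on chromosome 10 at 67535475 to 67542188, plus strand. Egr3 lies on chromosome 14 at 70077203 to 70082614, plus strand. Nab1 spans 43386 bases of chromosome 1, from 52457294 to 52500679 on the minus strand. Nab2 lies on chromosome 10 at 127660918 to 127668568 on the minus strand, and its last 40 exonic bases overlap the end of Stat6 on the other strand. An antisense transcript, Gm16229, overlaps 1050 exonic bases of Nab2 (35.7%), and Nemp1, also on the other strand, overlaps 151 (5.13%). The library kit marked strand, but whether the counting used it is not given in the sources used here, so reads from these overlaps cannot be assigned with certainty to Nab2.

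Upstream sequence from the RefSeq promoter table (GRCm38.p6) was examined for 3 of the 5 genes: Egr2, Nab1 and Nab2. The 250 bases before each listed start were searched on both strands for the CArG box (the binding site of serum response factor), for the Egr site GCGNGGGCG, for the cAMP response element TGACGTCA and for its shorter form TGACG, which TGACGTCA contains. Of the 5 Egr2 windows, 4 held 1 CArG box, against 1.47% of 32851 windows of the same length, and the 3 windows farthest downstream share the same box. The Egr2 window at chr10:67537619-67537868 (plus strand) precedes a start inside the gene, so it lies within the GENCODE span of Egr2 but between exons, and is shown because it carries this box, in capitals, 72 bases before the start. It also holds 2 matches to TGACG, which 17.8% of windows hold. The exon-free part of the Nab2 window, chr10:127666711-127666900 (minus strand), also lies between exons inside the GENCODE span of its gene, and is shown for comparison, since Nab2 rose with the Egr genes. None of the 4 motifs was found in the full Nab2 window. Nab1, which did not rise, had 3 Egr sites before its listed start, 141, 109 and 38 bases away, where 4.7% of windows hold any. These sites lie within a GENCODE exon, at chr1:52500573-52500597, chr1:52500541-52500565 and chr1:52500470-52500494 (minus strand), and the capitals mark the site. TGACGTCA was found in none of the windows of these 3 genes and in 1.55% of the 32851 windows searched. GC content was 61.6% in the Egr2 window shown, 72.8% in the full Nab2 window and 80.8% in the Nab1 window. The Egr site is made of G and C apart from N, which stands for any base. Its share of 4.7% comes from windows not matched for GC content. A match describes the letters only.
Egr2 before an internal start: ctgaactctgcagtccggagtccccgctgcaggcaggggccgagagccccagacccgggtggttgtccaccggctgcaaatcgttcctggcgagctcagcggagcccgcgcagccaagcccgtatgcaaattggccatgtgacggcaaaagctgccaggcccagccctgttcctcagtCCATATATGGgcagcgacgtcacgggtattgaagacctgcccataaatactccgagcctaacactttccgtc
Nab2 before an internal start: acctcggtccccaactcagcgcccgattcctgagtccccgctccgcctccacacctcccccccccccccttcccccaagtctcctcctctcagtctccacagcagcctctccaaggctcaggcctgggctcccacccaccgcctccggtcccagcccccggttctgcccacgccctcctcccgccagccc
Nab1 site at 141 bases: cccgcggcCGCCCACGCcgggatct
Nab1 site at 109 bases: tcggccgcGCGTGGGCGggagccgg
Nab1 site at 38 bases: ggggcgggGCGGGGGCGgcggaggt

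The libraries were estimated to be close in depth, from 0.919 to 1.06 relative to their mean. The estimate searched only a limited range around equal depth, so a wider gap could not have been returned. The summed FPKM of the libraries was less even, at 674961 (wild type) and 595500 (labelled knockout) without anti-IgM and 557214 to 571784 with it. Nr4a1 itself was at 126 FPKM in both unstimulated libraries and at 808 ± 47.2 FPKM (wild type) and 702.1 ± 44.6 FPKM (labelled knockout; SD, n = 4 each) with anti-IgM (limma adjusted p = 0.0432), so its level did not check the labels. Genotypes below are therefore those on the labels. All 6 B cell markers were expressed in every group and all 6 were called lower after stimulation, where 12.4% of all tested genes were. The 5 T cell markers were near 0, at 0.53 FPKM at most in any library. The 4 NK cell markers with a value reached 0.57 FPKM at most. The summed level of 7 myeloid markers was 75.0 and 86.2 FPKM in the unstimulated wild-type and knockout-labelled libraries, 41.2 to 133 FPKM in the stimulated wild-type libraries and 26.4 to 98.2 FPKM in those labelled knockout, ranges that overlap. The 4 erythroid markers with a value summed to 97.7 FPKM (wild type) and 33.9 FPKM (labelled knockout) without anti-IgM and to between 5.12 and 56.5 FPKM with it. The 5 plasma cell markers summed to 77.3 FPKM (wild type) and 90.2 FPKM (labelled knockout) without anti-IgM. With it they summed to 70.8 to 76.8 FPKM in wild type and 77.1 to 94.8 FPKM where knockout was labelled, without overlap and in the direction of the 5 genes. Of the 4 plasma cell markers that were tested, Prdm1, a regulator of plasma cell formation, was called higher in the stimulated libraries labelled knockout (3.62 ± 0.237 and 5.30 ± 0.750 FPKM, SD, n = 4 each; log2 difference 0.44, limma adjusted p = 0.0101). The other tested plasma cell markers were not called, where 3.91% of all tested genes were called higher and 5.81% lower. Igj was at 22.8 ± 3.63 and 30.8 ± 5.97 FPKM (SD, n = 4 each; log2 difference 0.41, limma adjusted p = 0.118). Xbp1 (0.052) and Sdc1 (-0.027) differed little. The surface marker gene Tnfrsf17 was at 0.29 FPKM at most. The part of the myeloid, erythroid and plasma cell transcripts in the results was not tested. Here, as in any bulk sample, fewer cells that express a gene and less RNA per cell cannot be told apart.

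Egr1, Egr2, Egr3 and Nab2 rose after anti-IgM in both genotypes, and Nab1 did not. A limma fit of all 10 libraries that allowed for genotype called 4 of the 5 genes higher, where 20.3% of all tested genes were called and 7.94% were called higher. A call for the response needed an adjusted p below 0.05 together with a change of 1 or more on the log2(FPKM + 1) scale; the other comparisons use the adjusted p alone, on the same scale. The rank of the rise among 10225 genes was 26 (Egr2), 53 (Egr3), 84 (Egr1) and 345 (Nab2). The median change of all tested genes was -0.17.

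Egr3, the most abundant of the 5 in every group, measured 33.8 FPKM in wild-type cells without anti-IgM and 191, 186, 194 and 198 FPKM with it (A to D). In the libraries labelled knockout it was at 54.1 FPKM before stimulation and at 265, 254, 259.7 and 244 FPKM in A to D after it. Every stimulated library labelled knockout was above every stimulated wild-type library. The rise was 5.69-fold in wild type and 4.72-fold in those labelled knockout, and the fitted log2 change was 2.35 (SE 0.0562, limma adjusted p = 5.78e-11) over both. Egr3 is known for restraining lymphocyte activation together with Egr2.

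Egr2 was the lowest of the 3 Egr genes in every group and had the largest rise of the 3 as a fold, though the smallest in FPKM. Wild-type cells held 10.9 FPKM without anti-IgM and 82.4, 84.6, 81.2 and 83.2 FPKM with it (A to D). The library labelled knockout held 19.7 FPKM without stimulation, and A to D held 115, 112, 109 and 105 FPKM after it. The genotypes again did not overlap after stimulation. The rise was 7.59-fold in wild type and 5.60-fold in those labelled knockout, and the fitted log2 change was 2.62 (SE 0.0720, limma adjusted p = 1.30e-10) over both.

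Egr1, a gene well known for its response to growth factors and antigen receptors, measured 20.9 FPKM in wild-type cells without anti-IgM and 102, 101.04, 100.6 and 107 FPKM with it (A to D). In the libraries labelled knockout it was at 31.6 FPKM before stimulation and at 125, 123, 125 and 119 FPKM in A to D after it. The lowest library labelled knockout was above wild-type library D, the highest of its group. The rise was 4.91-fold in wild type and 3.89-fold in those labelled knockout, and the fitted log2 change was 2.08 (SE 0.0611, limma adjusted p = 1.92e-10) over both.

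Nab2, the inducible corepressor, measured 21.5 FPKM in wild-type cells without anti-IgM and 62.9, 57.1, 57.9 and 64.8 FPKM with it (A to D). The libraries labelled knockout held 30.3 FPKM before stimulation and 80.45, 78.2, 83.2 and 76.3 FPKM in A to D after it, with no overlap. The rise was 2.82-fold in wild type and 2.63-fold in those labelled knockout, and the fitted log2 change was 1.41 (SE 0.0545, limma adjusted p = 1.28e-09) over both. Among the 5 genes, Nab2 varied most between wild-type libraries, with a coefficient of variation of 6.22%, against 1.77% to 2.77% for the others, whereas in the libraries labelled knockout Egr2 did (4.15%, against 3.73% for Nab2). Stat6, which shares 40 exonic bases with Nab2, was at 97.5 and 110 FPKM before stimulation and between 155 and 164 FPKM after it, and its genotypes overlapped.

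Nab1, the corepressor that is less tied to stimulation, measured 21.6 FPKM in wild-type cells without anti-IgM and 17.2, 18.2, 17.8 and 17.7 FPKM with it (A to D). The libraries labelled knockout held 25.7 FPKM before stimulation and 19.4, 20.03, 19.8 and 19.3 FPKM in A to D after it. All stimulated libraries were below the unstimulated library of their genotype. The log2 change was -0.32 (SE 0.0435, limma adjusted p = 3.66e-05), short of the size required for a call. The median change of all tested genes was -0.17, and under median-of-ratios scaling the Nab1 change was -0.14 in wild type and -0.16 where knockout was labelled. Rescaled to TPM, it was -0.030 in wild type and -0.31 where knockout was labelled.

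**Figure D1:**
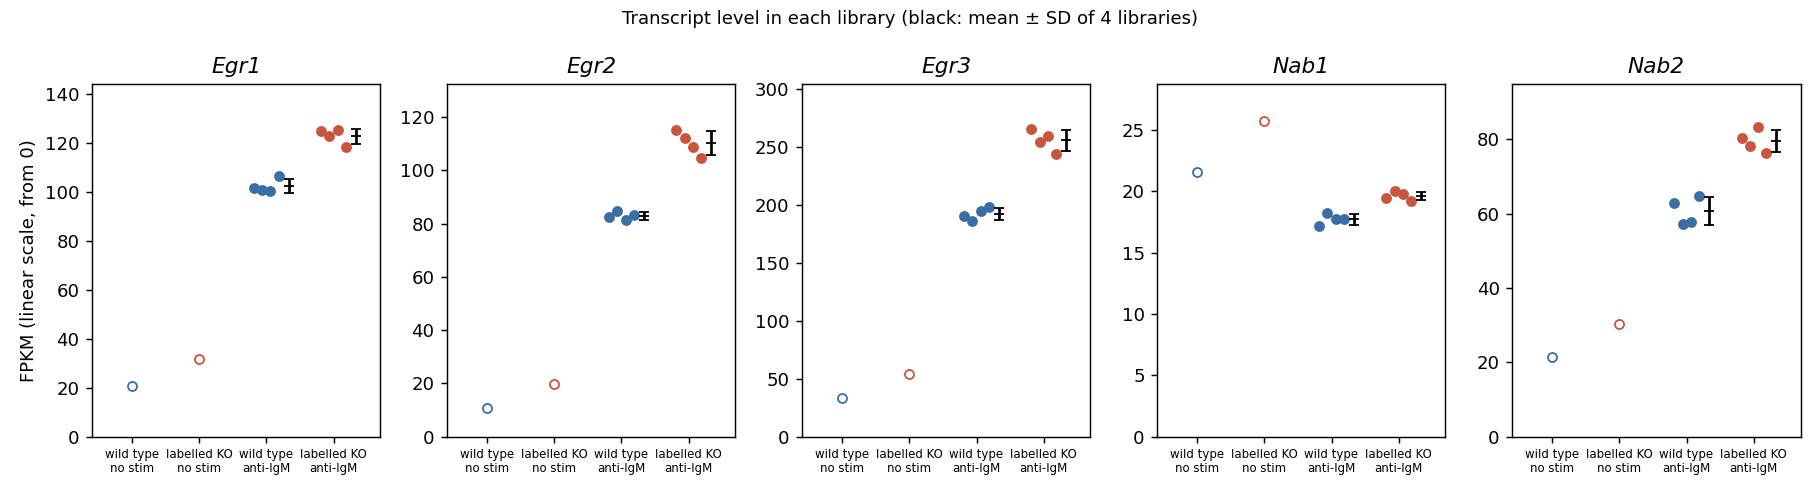
Level of each gene in every library in FPKM (linear axes from 0, one axis per gene); open points are the single unstimulated libraries, filled points the 4 stimulated libraries of a genotype, and black bars the mean ± SD of 4. The stimulated libraries labelled knockout lie above the wild-type ones for all 5 genes, and of the 5 genes Nab1 alone is lower after stimulation.

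The order of levels changed with stimulation. In the unstimulated wild-type library Nab1 (21.6 FPKM), Nab2 (21.5 FPKM) and Egr1 (20.9 FPKM) were nearly level, below Egr3 and above Egr2. After anti-IgM the wild-type order was Egr3, at 192 ± 5.33 FPKM, then Egr1, at 102.5 ± 2.74, Egr2, at 82.8 ± 1.46, Nab2, at 60.7 ± 3.77, and Nab1, at 17.7 ± 0.430 (SD, n = 4 each), and no 2 neighbours in it overlapped. The order was the same in the libraries labelled knockout, where the means were 256 ± 9.16, 123 ± 3.10, 110.2 ± 4.57, 79.6 ± 2.97 and 19.6 ± 0.356 FPKM (SD, n = 4 each). Among all 17658 genes ranked by FPKM in wild type, Egr3 went from position 2452 to position 378.

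Egr3 made up a similar share of the Egr transcripts with and without anti-IgM, while Nab2 made up a larger share of the Nab transcripts with it. The summed FPKM of Egr1, Egr2 and Egr3 went from 65.5 to 378 ± 7.21 in wild type and from 105 to 489 ± 16.1 where knockout was labelled (SD, n = 4 each). Egr3 made up 51.5% and 51.3% of it in the unstimulated wild-type and knockout-labelled libraries and 50.9% ± 0.692 and 52.3% ± 0.299 (SD, n = 4 each) after stimulation. The Egr1 share was 31.8% and 30.0% before and 27.2% ± 0.298 and 25.2% ± 0.322 after, and the Egr2 share was 16.7% and 18.7% before and 21.9% ± 0.604 and 22.5% ± 0.420 after. Nab2 made up 49.97% and 54.0% of the summed Nab FPKM before stimulation and 77.4% ± 1.40 and 80.2% ± 0.547 after it. The ratio of Nab2 to Nab1 went from 0.999 to 3.43 ± 0.272 in wild type and from 1.18 to 4.05 ± 0.140 where knockout was labelled (SD, n = 4 each). The ratio of summed Egr to summed Nab transcripts went from 1.52 to 4.82 ± 0.152 in wild type and from 1.88 to 4.93 ± 0.116 where knockout was labelled (SD, n = 4 each), and after stimulation the 2 genotypes overlapped in it. These sums and ratios are descriptions without a test.

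**Figure D2:**
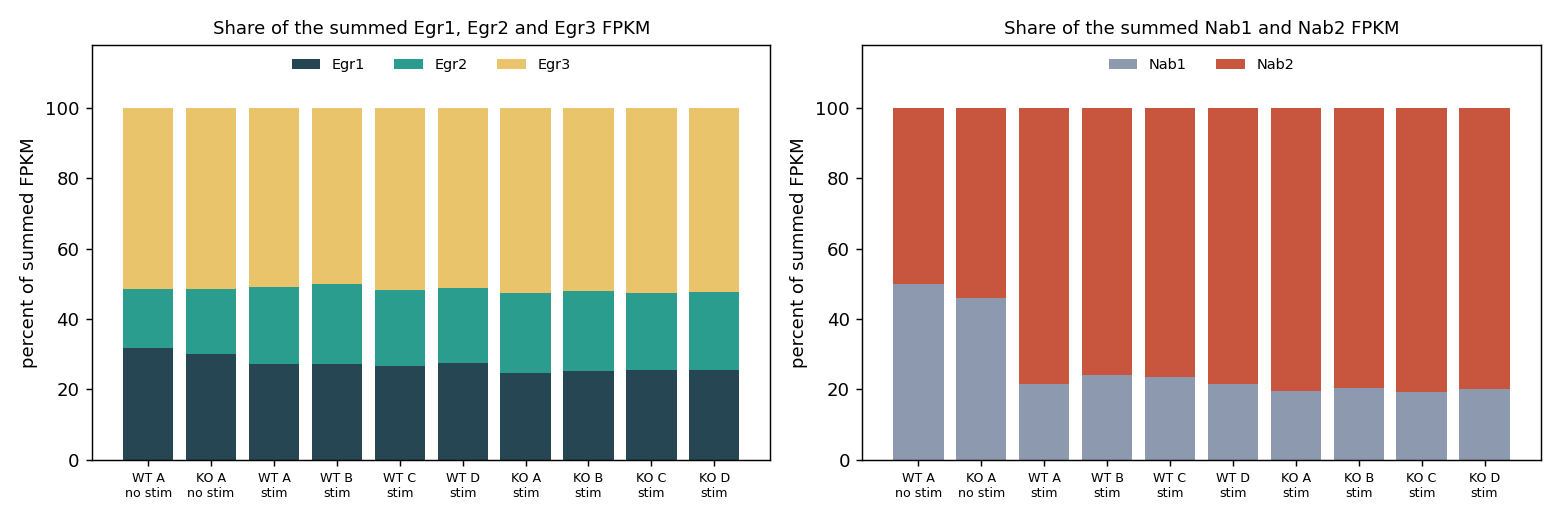
Share of each Egr gene in the summed Egr FPKM (left, percent) and of each Nab gene in the summed Nab FPKM (right, percent), 1 stacked bar per library. Egr3 makes up between 50.01% and 52.6% of every bar, while Nab2 goes from 49.97% and 54.0% in the unstimulated bars to at least 75.8% in the stimulated ones.

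All 5 genes were higher in the stimulated libraries labelled knockout than in the stimulated wild-type libraries. The limma fit over these 8 libraries called all 5 at an adjusted p under 0.05, where it called 9.72% of all tested genes, 3.91% as higher and 5.81% as lower. In all 5 the 4 and 4 libraries did not overlap, which held for 15.5% of tested genes and in that direction for 5.96%. The median difference of all tested genes was -0.024. These differences were known when the genes were chosen, so the count is a description.

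In size, Egr2, Egr3 and Nab2 stood together. Egr2 was 33.05% higher (log2 difference 0.41, SE 0.0317, limma adjusted p = 5.76e-05), Egr3 33.04% higher (0.41, SE 0.0314, limma adjusted p = 5.06e-05) and Nab2 31.1% higher (0.39, SE 0.0455, limma adjusted p = 0.000641) in the libraries labelled knockout. Egr1 was 19.9% higher (0.26, SE 0.0277, limma adjusted p = 0.000360), and its 95% interval, 0.20 to 0.32, did not reach those of Egr2 (0.34 to 0.48) and Egr3 (0.34 to 0.48), a difference between genes that was not tested. Nab1 was 10.8% higher (0.14, SE 0.0311, limma adjusted p = 0.0206). The ratio of Egr3 to Egr1 was 1.88 ± 0.0403 in wild type against 2.08 ± 0.0304 where knockout was labelled, and that of Egr2 to Egr1 was 0.808 ± 0.0232 and 0.896 ± 0.0261 (SD, n = 4 each), both without overlap. The ratio of Egr3 to Egr2 was 2.32 ± 0.0917 and 2.32 ± 0.0530. Under TPM, median-of-ratios and quantile scaling the difference stayed between 0.24 and 0.44 for Egr1, Egr2, Egr3 and Nab2, and their calls held under all 19 alternatives. The Nab1 call ended in 5 of the 8 fits that left out 1 library: its limma adjusted p was 0.0557 without wild-type library A, 0.0504 without C, 0.0534 without D, 0.0511 without knockout-labelled library B and 0.0517 without C.

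The same 5 genes were also higher in the unstimulated library labelled knockout, a comparison of 1 library with 1 that has no replicate check. Egr2 was 80.3% higher there (log2 difference 0.80), Egr3 60.3% (0.67), Egr1 51.5% (0.58), Nab2 40.5% (0.47) and Nab1 19.4% (0.25). The median difference of all tested genes was 0.067 and the SD over genes was 0.38. In size, the Egr2 difference was larger than that of 98.3% of tested genes, Egr3 97.3%, Egr1 95.8%, Nab2 91.3% and Nab1 62.1%. Of 24 other immediate early genes, 23 were higher in the unstimulated library labelled knockout, with a median of 0.39, the exception being Nr4a1 (-0.0097). Among them were Junb (78.5 and 138 FPKM), Fos (2.70 and 5.38 FPKM) and Jund (30.0 and 50.4 FPKM), AP-1 subunits named after their values were seen. The lean was not particular to immediate early genes. Also higher were 9 of 11 factors that act on Egr genes (median 0.32) and 11 of 13 NuRD genes (0.29). So were 16 of 20 genes placed downstream of Egr factors (0.23), but only 3 of 6 B cell markers (-0.0024). The all-gene median of 0.067, which splits the tested genes evenly, was passed by 23 of the 24 immediate early genes and 9 of the 11 upstream factors. It was also passed by 11 of the 13 NuRD genes, 15 of the 20 downstream genes and 1 of the 6 B cell markers. Rescaling to TPM moved the median of all tested genes in this pair to 0.24 and the Egr2 difference to 0.99, while with median-of-ratios scaling they were 0.025 and 0.75.

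**Figure D3:**
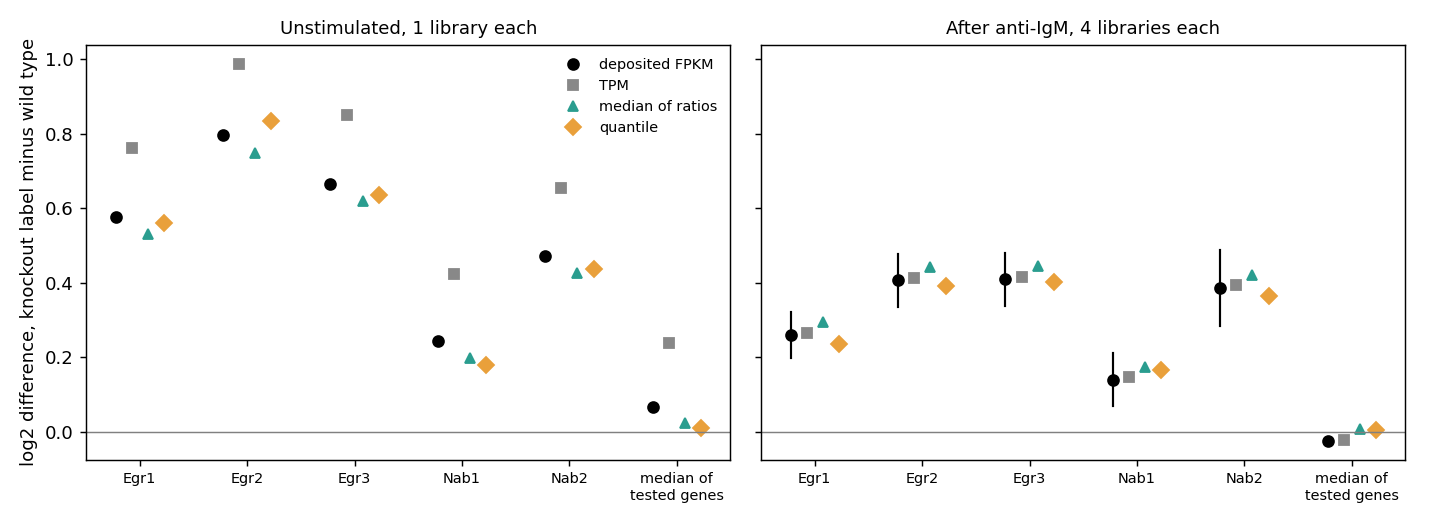
Log2 difference, libraries labelled knockout minus wild type, in the unstimulated pair (left) and after anti-IgM (right), for each gene and for the median of all tested genes under 4 scalings; vertical lines are 95% intervals of the limma fit on deposited FPKM. All 5 genes are above 0 in both panels under each scaling, and each lies lower on the right than on the left on deposited FPKM.

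Whether the rise itself differed between genotypes depends on how it is expressed. As a gain in FPKM, the rise was larger in the libraries labelled knockout: 202 against 158 for Egr3, 91.3 against 81.7 for Egr1, 90.5 against 71.9 for Egr2 and 49.3 against 39.2 for Nab2. As a fold it was smaller for all 4. On the log2 scale the response was 2.81 in wild type against 2.43 where knockout was labelled for Egr2, 2.24 and 1.93 for Egr1, 2.47 and 2.22 for Egr3, 1.45 and 1.37 for Nab2, and -0.27 and -0.37 for Nab1. A limma fit of 4 group means tested this difference, with each single unstimulated library assumed to vary like the stimulated ones. It called 18.9% of all tested genes, 14.7% as lower and 4.18% as higher in the libraries labelled knockout, with a median of -0.096 over all. The difference was -0.39 for Egr2 (SE 0.0723, limma adjusted p = 0.00718), -0.32 for Egr1 (SE 0.0629, limma adjusted p = 0.00932) and -0.26 for Egr3 (SE 0.0705, limma adjusted p = 0.0343), so 3 of the 5 were called lower. It was -0.086 for Nab2 (95% interval -0.32 to 0.14, limma adjusted p = 0.608) and -0.10 for Nab1 (95% interval -0.26 to 0.051, limma adjusted p = 0.329). Under TPM the differences were larger, at -0.57 for Egr2, -0.496 for Egr1, -0.43 for Egr3, -0.28 for Nab1 and -0.26 for Nab2 (limma adjusted p = 0.0956 for Nab2). With TPM the median genotype difference of all tested genes was 0.24 before stimulation and -0.020 after it, a gap of -0.26 between medians. With median-of-ratios scaling the call of Egr1 ended (-0.24, limma adjusted p = 0.0569), as did that of Egr3 (-0.17, limma adjusted p = 0.189), while Egr2 kept its call under all 18 alternatives. For Egr3 the limma adjusted p was also over 0.05 without wild-type library A (0.0509), C (0.0567) or D (0.0541) and without knockout-labelled library B (0.0522).

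**Figure D4:**
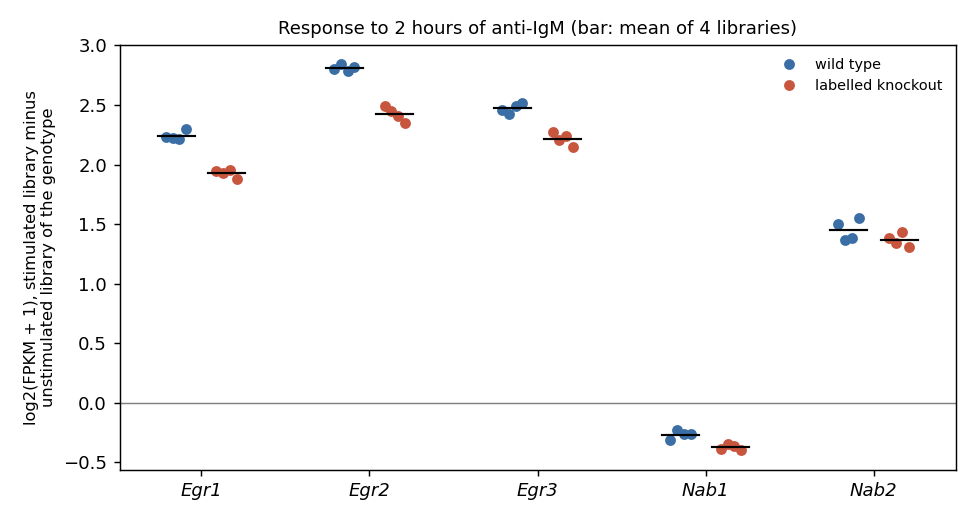
Log2(FPKM + 1) of each stimulated library minus that of the unstimulated library of its genotype; points are libraries, bars the mean of 4, and all 4 points of a genotype subtract the same library. The wild-type points lie above those labelled knockout for Egr1, Egr2 and Egr3, the groups overlap for Nab2, and both lie below 0 for Nab1.

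The genes whose profiles over the 10 libraries were nearest to each member were found by the root mean square gap between log2 profiles, each gene set to its own mean, among 7682 other genes averaging 5 FPKM or more. For Egr2 the nearest was Smad3, which encodes a signal transducer of the TGF-beta pathway, with a gap of 0.047. Smad3 stood at 11.4 and 20.6 FPKM in the unstimulated wild-type and knockout-labelled libraries and at mean levels of 85.4 and 112 FPKM after stimulation. Fam167a (0.087) and the sphingosine phosphate receptor gene S1pr3 (0.096) followed, and Egr3 took place 4, at 0.12. For Egr1 the nearest were Orai1, the pore subunit of the calcium channel opened after antigen receptor signals (0.048), Abtb2 (0.056) and B4galt5 (0.063), with Egr3 in place 25. For Egr3 they were Marcksl1 (0.050), Cdk5r1 (0.087) and Rasgef1b (0.094). For Nab2 they were Lck, a Src family kinase gene (0.065), Inf2 (0.073) and Bcar3 (0.089), and Egr1 took place 679. For Nab1 they were Otud7b (0.037), Agpat2 (0.042) and Hgsnat (0.054). The gap between Nab1 and Nab2 was 0.71, so the corepressors were farther from each other than any 2 Egr genes, whose gaps were 0.12 to 0.23.

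Egr4, the remaining family member, was listed at 0 FPKM in wild-type cells without anti-IgM and at 0.09 FPKM at most elsewhere. Wt1, a related zinc finger gene, has no value here.

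Among 11 factors that act on Egr genes, 1 rose and 2 fell with stimulation, beside 7.94% and 12.4% of all tested genes. Nfatc1, a calcium-regulated factor, rose from 32.6 to 166 ± 4.22 FPKM in wild type and from 59.9 to 198 ± 3.88 FPKM where knockout was labelled (SD, n = 4 each), with a log2 change of 2.01 (limma adjusted p = 8.06e-09). The serum response factor coactivator Mkl1 (log2 change -1.79) and the ternary complex factor gene Elk3 (-1.205) fell. Between stimulated genotypes 3 were called higher where knockout was labelled and 2 lower, with a list median of -0.072 (all tested genes: 3.91% higher, 5.81% lower). They were Nfatc1 (0.25), Creb1 (0.12) and Atf1 (0.10) against Mkl1 (-0.30) and Elk4 (-0.17). Srf itself, which binds the CArG box, was at 20.8 ± 1.35 and 19.9 ± 0.498 FPKM (SD, n = 4 each; log2 difference -0.057, limma adjusted p = 0.526).

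Of 13 genes of the NuRD complex, which Nab proteins recruit, 3 rose with stimulation, 1 fell and 9 were not called, with a median of 0.36, beside 7.94% of all tested genes called higher and 12.4% lower. Chd4 rose by a log2 change of 1.195, Chd3, its paralogue, by 1.077 and the histone-binding subunit gene Rbbp7 by 1.01, and Mta3 fell by 1.23 (limma adjusted p of 1.83e-07 at most). Between stimulated genotypes 1 gene was higher in the libraries labelled knockout, the deacetylase gene Hdac1 (76.1 ± 1.48 and 92.3 ± 1.56 FPKM, SD, n = 4 each; log2 difference 0.27, limma adjusted p = 0.000105), and 12 were not called, where 3.91% of all tested genes were called higher and 5.81% lower. The list median was -0.024, the same as that of all tested genes.

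Of 25 genes that published work places downstream of Egr factors, 20 were tested, and they moved in both directions. With stimulation 6 rose, 4 fell and 10 were not called, with a median of 0.069 (all tested genes: 7.94% higher, 12.4% lower). The largest rises were those of Vegfa (3.40), Il2ra (3.08) and Gadd45b (2.47), and the largest falls those of the diacylglycerol kinase gene Dgka (-2.90), the cell cycle inhibitor gene Cdkn1b (-2.12) and the ubiquitin ligase gene Cblb (-2.04). Between stimulated genotypes 3 were higher in the libraries labelled knockout, Vegfa (0.59), the cytokine gene Tnf (0.51) and the adhesion gene Icam1 (0.41), and 4 were lower, Id2 (-0.67), Cblb (-0.49), Cd44 (-0.46) and Dgkz (-0.15). The other 13 were not called, and the list median was -0.049 (all tested genes: 3.91% higher, 5.81% lower). Il2ra, an induced gene in this list, was at 119 ± 6.23 and 115 ± 3.59 FPKM (SD, n = 4 each; log2 difference -0.044, limma adjusted p = 0.582).

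Among 24 other immediate early genes, 9 rose with stimulation, 1 fell and 14 were not called, with a median of 0.48 (all tested genes: 7.94% higher, 12.4% lower). The largest rises were those of the growth regulator gene Myc (3.33), Maff (3.15) and Nr4a3 (2.83), and Btg2, which encodes an antiproliferative factor, fell by 1.595. Between stimulated genotypes 8 were higher where knockout was labelled, 6 lower and 10 not called, with a median of 0.051 (all tested genes: 3.91% higher, 5.81% lower). The largest differences were those of the nuclear receptor genes Nr4a2 (0.80) and Nr4a3 (0.51) and of Fosl2 (0.47) on the higher side, and of the phosphatase genes Dusp1 (-0.43) and Dusp5 (-0.30) and the RNA decay factor gene Zfp36 (-0.21) on the lower side. The 5 Egr and Nab genes, all higher, had a median of 0.39, but they were chosen with these differences known. Of the immediate early genes that rose, Nr4a2, Nr4a3, Fosl2, Maff (0.41) and Dusp2 (0.19) were also called higher where knockout was labelled. Nr4a1 (-0.20) was called lower, and Myc (0.12), Fosl1 (0.015) and Fosb (0.012) were not called.

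In the test of the difference in response, most called genes of the 4 lists were lower, as were most called genes of the whole table (14.7% lower, 4.18% higher). That split depends on the scaling: 427 genes were called higher and 1504 lower on deposited FPKM, 175 and 3455 with TPM, 874 and 1210 with quantile normalization and 562 and 788 with median-of-ratios scaling. The list counts below are on deposited FPKM. The counts were 6 lower and 1 higher of 11 upstream factors (median -0.38), 8 and 0 of 13 NuRD genes (-0.33), 6 and 1 of 20 downstream genes (-0.32) and 12 and 0 of 24 immediate early genes (-0.36). Chd4 (-0.51), Mkl1 (-0.65), Cblb (-0.84) and Zfp36 (-0.72) led their lists on the lower side, and Creb1 (0.24) and Vegfa (0.63) were the 2 higher ones.

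**Figure D5:**
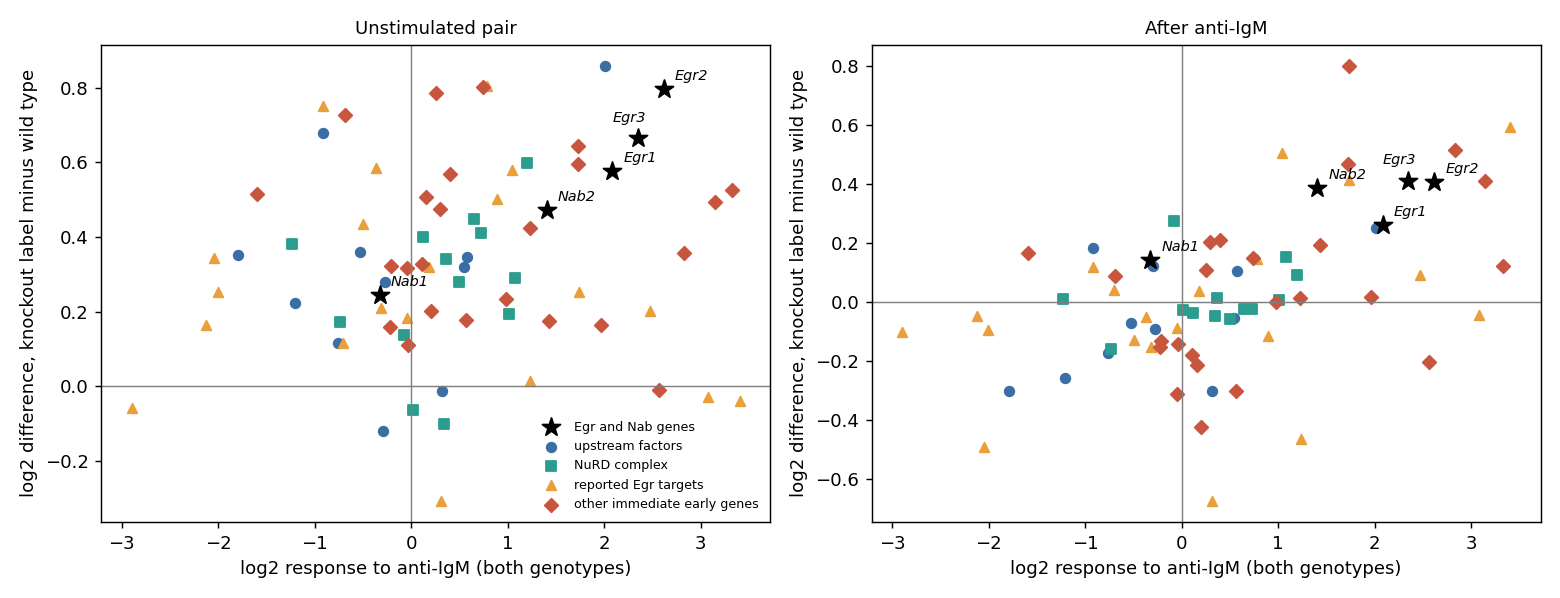
Log2 difference between genotypes (labelled knockout minus wild type) in the unstimulated pair (left) and after anti-IgM (right) against the log2 response to anti-IgM over both genotypes, for the Egr and Nab genes (stars) and 4 gene lists; each point is a gene. After anti-IgM the listed genes lie on both sides of 0, and all 5 stars lie above it.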

How the data were processed

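The deposited table holds FPKM per gene and library, made by the authors; STAR 2.4, RSEM 1.2.14 and build mm10 are named, without roles, in the submitters' processing notes. Gene annotation, filters and strand use are not given in the sources used here. All 10 columns matched 1 sample each by its description. FPKM carry no read total, so no count model was fitted and absolute depth is unknown; relative depth came from the ratios of 572 low genes between libraries, a procedure tested on simulated data.

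Values were analysed as log2(FPKM + 1) with limma 3.58.1 in R 4.3.3 (lmFit, eBayes with mean trend, two-sided), over every gene averaging 1 FPKM or more, with Benjamini-Hochberg adjustment over all of them. Genotypes were compared over the 8 stimulated libraries, the response over all 10 with a genotype term, and the difference in response over 4 group means; the fits were tested on simulated data. From each list the text names up to 3 called genes with the largest change each way. Srf, Il2ra, Junb, Fos and Jund were added after their values were seen. So were the genotype differences of Maff, Dusp2, Nr4a1, Myc, Fosl1 and Fosb after stimulation. Some older symbols were matched through RefSeq. The 5 genes and the lists were chosen with earlier results of these data known. Motifs were searched with regular expressions. Alternatives covered pseudocount, filter, scaling, eBayes settings, the letter as a block and leaving out libraries.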

Additional observations from a re-analysis of the deposited data

Results flagged for a closer look

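The response to anti-IgM differed between genotypes for 3 of the 5 genes by the test of the difference itself, with a smaller log2 response in the libraries labelled knockout. The difference was -0.39 for Egr2 (2.81 in wild type, 2.43 in the libraries labelled knockout), -0.32 for Egr1 (2.24 and 1.93) and -0.26 for Egr3 (2.47 and 2.22). Each value rests on 1 unstimulated library per genotype, and 14.7% of all tested genes were called in that direction. The gain in FPKM went the other way. Among the 10 groups of 4 stimulated libraries (5 genes, 2 genotypes) no library's gap to its nearest neighbour, as a share of the group's range, passed Dixon's 95% critical value for 4 values. The largest was 0.776, for Egr1 in wild type, where library D was highest.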

How the results depend on the processing

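Over 290 refits of 15 results for single genes, none turned its direction and 272 kept their side of the threshold. Nab1 between stimulated genotypes lost its call with the letter as a replicate block (0.14, limma adjusted p = 0.0639), and leaving out 1 library gave 0.13 to 0.15. For the difference in response, Egr3 lost its call with a pseudocount of 5 (-0.21, limma adjusted p = 0.0633), no filter (-0.26, limma adjusted p = 0.0515), median-of-ratios scaling (-0.17), quantile normalization (-0.23, limma adjusted p = 0.0527), eBayes without trend (-0.26, limma adjusted p = 0.0716) and the replicate block (-0.26, limma adjusted p = 0.0798), and lay between -0.27 and -0.23 with 1 library left out. Egr1 lost it with median-of-ratios scaling (-0.24), and Nab1 was called with TPM (-0.28, limma adjusted p = 0.0167). Rescaling to TPM sets the sums of all libraries equal. The deposited sums were 674961 FPKM (wild type) and 595500 FPKM (labelled knockout) without anti-IgM and 557214 to 571784 FPKM with it. Why these sums differed, and why the other calls changed, was not tested. Genes called in that comparison numbered 3630 with TPM and 1238 with the block, against 1931; leaving out an unstimulated library leaves that difference with no value. For the response, a pseudocount of 5 left 1132 calls (534 higher, 598 lower) against 2078 (812 and 1266). The split of higher and lower calls became 1102 and 1071 with TPM, 1050 and 901 with median-of-ratios scaling and 983 and 914 with quantile normalization. Between stimulated genotypes it went from 400 and 594 to 535 and 401 with median-of-ratios scaling and to 479 and 438 with quantile normalization.

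Same-lettered libraries of the 2 genotypes did not deviate together (r across genes of -0.0214, 0.0445, 0.00745 and -0.122 for A to D), and no wild-type library correlated best with its own letter, so the letters were not taken to pair libraries; whether unstimulated and stimulated libraries with the letter A share an animal was not tested; the block took the calls between stimulated genotypes from 994 to 740. In the unstimulated pair the differences of Egr1, Egr2, Egr3, Nab1 and Nab2 were 0.76, 0.99, 0.85, 0.42 and 0.66 with TPM. With median-of-ratios scaling Egr1, Egr2, Egr3 and Nab1 were at 0.53, 0.75, 0.62 and 0.20, and with a pseudocount of 5 at 0.50, 0.63, 0.61 and 0.21. Egr2 was at 0.84 with a pseudocount of 0.1 and Nab1 at 0.18 after quantile normalization. The Nab2 share of Nab transcripts in the stimulated libraries labelled knockout was 79.4% after quantile normalization. Read totals are unknown, and each unstimulated group is 1 library, so the pair and the difference in response have no spread of their own before stimulation.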
